A study of Rattus norvegicus with 43 samples.

Results

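A7r5 cells, a smooth muscle line derived from rat aorta, were compared after 21 days in folate-deficient medium (2.5 ng/ml folic acid) and after 21 days in folate-excess medium (100 ng/ml). The comparison rests on 10 of the 43 arrays of the series, 5 of each medium, chosen by the day and the dose in their labels. Of the other arrays, 5 came from sufficient medium (10 ng/ml) at the same day and are set between both groups below as the middle dose, and deficient and excess arrays of days 7 and 14 (8 and 10) give the time course. All groups were the same unmodified line in custom-made DMEM, a standard culture medium, so that the groups differ in folic acid and not in genotype, and the findings hold for 1 established line in culture. Whether the 5 arrays of a group came from different dishes is not given in the labels, and every p-value therefore reflects spread among arrays that may be technical. Messenger RNA was read with Affymetrix rat arrays, whose short probes lie mainly near the 3' ends of transcripts, and every level below is the deposited log2 expression value of 1 probe set per gene.

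Folate carries single carbon units. Cells use them to make thymidylate and purines for DNA, and to return homocysteine to methionine, the donor of methyl groups. Vascular smooth muscle cells are not terminally differentiated. They can divide and make matrix, or they can express the contractile proteins of the vessel wall, and A7r5 cells also express some genes of skeletal and cardiac muscle.

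The labelled cell type was borne out by its markers, since all 8 smooth muscle markers had mean log2 levels above 4, the limit used as a guide to background. Their mean level per array was between 10.83 and 10.87 in deficient medium, and between 10.34 and 10.45 in excess medium. Of 7 skeletal muscle markers 4 were above the limit, with array means of 6.21 to 6.37 in deficient and 5.21 to 5.38 in excess medium. Acta1, Myh3 and Ckm had higher mean levels in deficient medium, while Myl11 and Myog had mean log2 levels of 3.58 ± 0.26 and 3.43 ± 0.15 in deficient medium, against 4.18 ± 0.30 and 3.70 ± 0.15 in excess medium. Of the 4 endothelial, 5 macrophage and 4 adipocyte markers with a probe set, 0 were above it, and Pecam1, Csf1r and Adipoq were all near background. Of 4 epithelial markers only Krt8 was above it, with mean log2 levels of 9.00 ± 0.10 in deficient and 8.12 ± 0.12 in excess medium. Of 5 fibroblast markers Thy1 and Pdpn were above it over the 10 arrays. Array means over the list were 5.46 to 5.59 in deficient and 5.68 to 6.08 in excess medium. Lum, described with the matrix genes below, had mean log2 levels of 2.24 ± 0.13 in deficient and 5.30 ± 0.63 in excess medium. Thy1 (11.52 against 11.39) and Pdpn (8.74 against 7.95) had higher means in deficient medium, of which Thy1 did not pass an adjusted p of 0.05. As the mean of its passing probe sets Thy1 had a log2 fold change of 0.52 and did pass (adjusted p = 0.00072 in limma). Pdgfra and Dcn were near background. The part of these markers in the differences was not tested, and in such bulk samples fewer cells of a type and less RNA per cell cannot be told apart.

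Some arrays stood apart in 2 technical measures. The running serial number in the titles was 31 to 35 for the deficient arrays, and 41, 42, 44, 55 and 56 for the excess arrays, so that 2 excess arrays (replicates 3 and 5) and 0 deficient arrays lie above 45, where arrays of all 3 days are mixed in again. No value within that later series can be given. The control probe sets for beta-actin read the 3' and the 5' end of one transcript. They differed by 1.54 to 1.79 on the log2 scale in deficient medium and by 1.76 to 2.79 in excess medium. Replicates 3, 4 and 5 of excess medium were above 2. So were replicates 1, 3 and 4 of excess medium at day 14, and replicates 1 and 2 of sufficient medium at day 7. With these 5 arrays of other groups they are the high beta-actin arrays below. Counts and medians of gene lists and values of named genes are given without these arrays, a choice made after seeing the data, where that moved them by over 1.5 times.

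Of 9093 genes tested, 4626 (50.9%) passed an adjusted p of 0.05 in limma, 2033 (22.4%) higher and 2593 (28.5%) lower in deficient medium, and 1410 (15.5%) also differed by at least 1.5-fold, 624 (6.86%) higher and 786 (8.64%) lower. In 3440 genes (37.8%) the 5 deficient and the 5 excess arrays did not overlap. The median log2 fold change of all genes tested was -0.04. Most of the called genes differed by less than 1.5-fold, and the counts of the gene groups below have to be read against these shares. Without high beta-actin arrays 3378 genes were called, and without the 2 later excess arrays 3959.

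**Figure D1:**
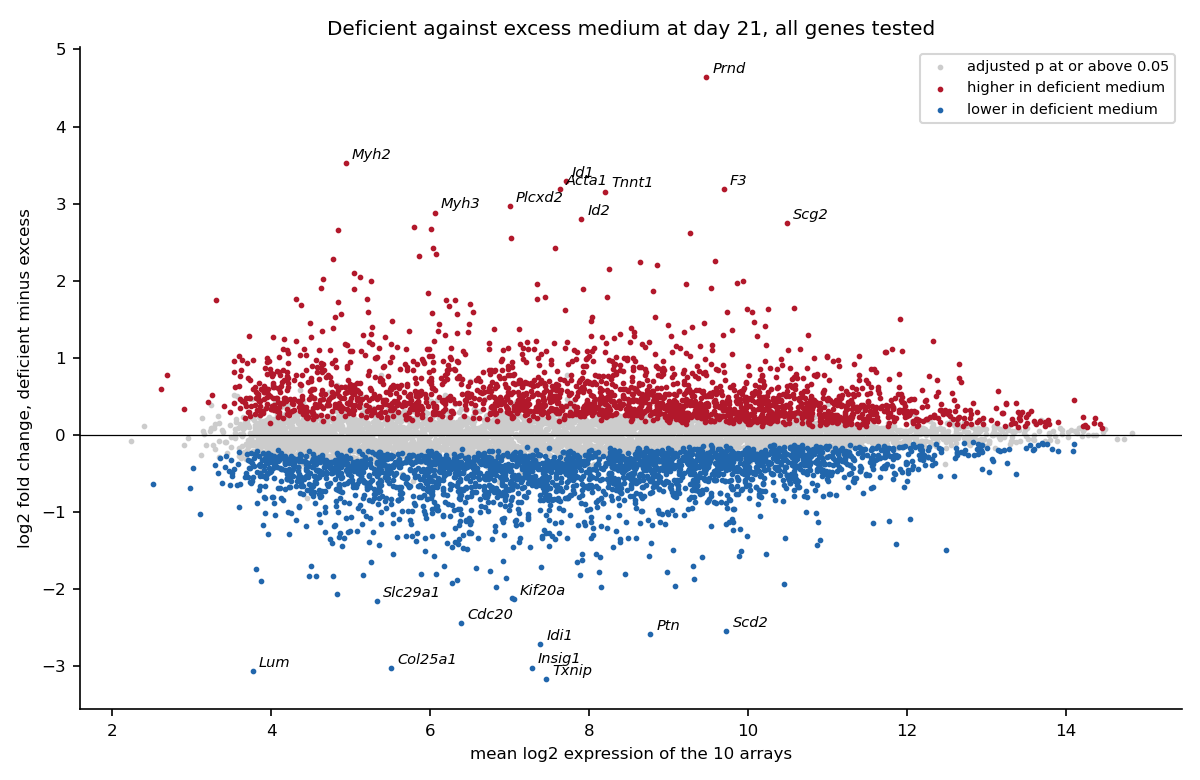
Log2 fold change of deficient over excess medium at day 21 (vertical axis) against the mean log2 level of the 10 arrays (horizontal axis) for the 9093 genes tested, with the 10 highest and 10 lowest named. Red points (2033) were higher and blue points (2593) lower in deficient medium at an adjusted p of 0.05, grey points were not past it, and Prnd stands at 4.64.

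The genes with the largest rise in deficient medium were a prion family member, tissue factor, Id genes and sarcomere genes. Prnd, which encodes doppel, a membrane-anchored relative of the prion protein, had log2 levels of 11.84, 11.82, 11.80, 11.76 and 11.75 in deficient medium, against levels between 6.89 and 7.34, with a median of 7.14, in excess medium. The groups did not overlap, every deficient array lay far above every excess array, and the log2 fold change was 4.64 ± 0.10 (SE, 25-fold, adjusted p = 1.2e-31 in limma). A value after ± is the SE where it follows a log2 fold change and the SD of 5 arrays where it follows a mean level. F3, tissue factor, which starts the clotting cascade when blood meets it, had log2 levels of 11.17, 11.32, 11.37, 11.30 and 11.27 in deficient medium, against 8.32, 8.11, 8.17, 7.86 and 8.04 in excess medium. Its groups were likewise apart, with a log2 fold change of 3.19 ± 0.10 (adjusted p = 2e-25). Scg2, a protein of secretory granules, had log2 levels of 11.87, 11.90, 11.89, 11.87 and 11.80 in deficient medium, against 9.01, 9.02, 8.81, 9.36 and 9.38 in excess medium, and differed by 2.75 ± 0.10 on the log2 scale. Plcxd2, named for a phospholipase C domain, had a mean log2 level of 8.48 ± 0.11 in deficient medium and 5.52 ± 0.13 in excess medium (SD, n = 5 each).

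**Figure D2:**
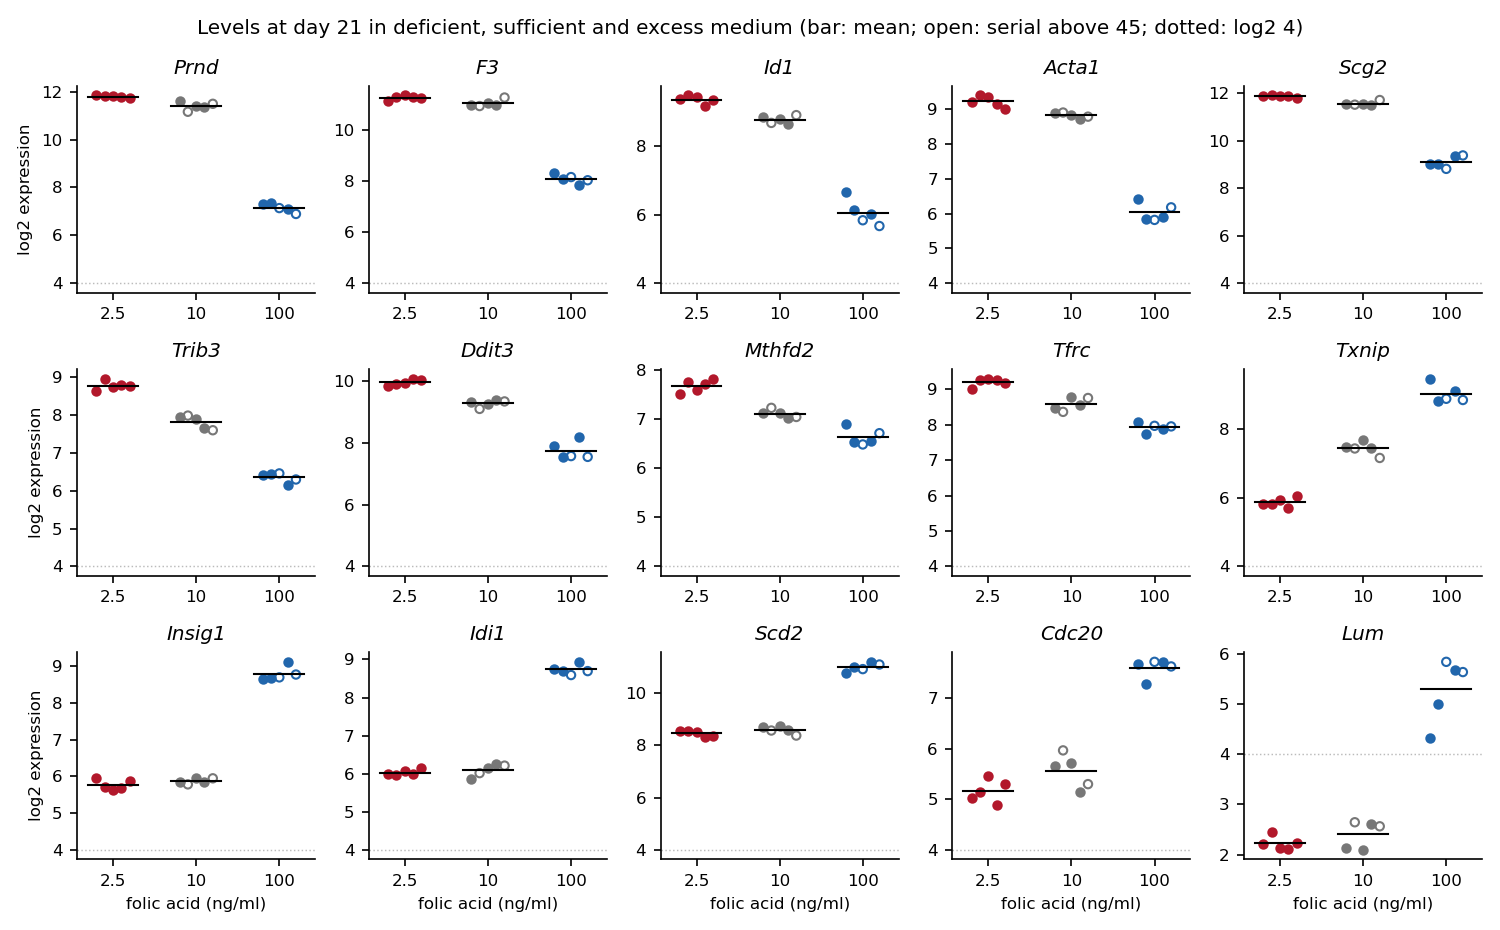
Log2 expression (vertical axis) of 15 genes at day 21 in medium with 2.5, 10 and 100 ng/ml folic acid (horizontal axis), with 1 point per array, a bar at the mean of 5 arrays, open points for arrays with a serial above 45 and a dotted line at the background limit of 4. For Prnd, F3, Id1, Acta1 and Scg2 the points at 2.5 and 10 ng/ml all lie above those at 100 ng/ml, for Trib3, Ddit3, Mthfd2, Tfrc and Txnip the 3 doses form a stair, and for Insig1, Idi1, Scd2, Cdc20 and Lum the lower doses lie below.

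Id proteins bind basic helix-loop-helix transcription factors and keep them off DNA, and their genes are classical targets of bone morphogenetic protein signalling. Id1 had log2 levels of 9.36, 9.48, 9.42, 9.16 and 9.34 in deficient medium, against 6.66, 6.14, 5.84, 6.01 and 5.67 in excess medium. No deficient array came within 2 log2 units of an excess array, and the log2 fold change was 3.29 ± 0.10 (adjusted p = 1e-25). Id2 had mean log2 levels of 9.30 ± 0.46 in deficient and 6.50 ± 0.22 in excess medium and a log2 fold change of 2.80 ± 0.15, with replicates 3 and 4 of deficient medium above the other deficient arrays. Atoh8, a helix-loop-helix factor, had 4.17 ± 0.21 in deficient and 2.43 ± 0.30 in excess medium, where it was below the background limit. In the list of TGF-beta, BMP and Id genes 14 of 26 tested members rose and 4 fell, with a median log2 fold change of 0.19, beside 22.4% higher, 28.5% lower and -0.04 over all genes tested. The 4 that fell were Fst (follistatin) and Grem1 (gremlin), secreted antagonists of TGF-beta family ligands, Hes1, a Notch target, and Smad5, with log2 fold changes of -0.80, -0.43, -0.71 and -0.18. The counts were 10 higher and 2 lower without high beta-actin arrays.

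Genes of skeletal and cardiac muscle were mostly higher in deficient medium, with 17 of 25 tested members up, 1 down and a median log2 fold change of 0.70. Acta1, skeletal alpha-actin, had log2 levels of 9.21, 9.39, 9.36, 9.15 and 9.00 in deficient medium, against 6.43, 5.86, 5.82, 5.90 and 6.18 in excess medium. The groups were apart by more than 2 log2 units, and the log2 fold change was 3.19 ± 0.11 (adjusted p = 1.3e-24). Tnnt1, slow skeletal troponin T, had log2 levels of 9.86, 9.86, 9.85, 9.67 and 9.65 in deficient medium, against 6.80, 6.92, 6.27, 6.96 and 6.15 in excess medium, and differed by 3.16 ± 0.15. Replicates 3 and 5 of excess medium, both of the later serials, were its lowest arrays. Myh3, the embryonic myosin heavy chain, had mean log2 levels of 7.50 ± 0.09 in deficient and 4.62 ± 0.11 in excess medium, and Myh2, a fast myosin heavy chain, had 6.70 ± 0.32 and 3.17 ± 0.11, the second of these below the background limit, so that its fold change of 3.53 ± 0.17 is inexact. Cox6a2, the muscle form of a subunit of cytochrome oxidase, had log2 levels of 9.66, 9.82, 9.81, 9.67 and 9.83 in deficient medium, against 7.44, 7.37, 7.50, 7.66 and 7.60 in excess medium. Its log2 fold change was 2.24 ± 0.10 (adjusted p = 5.3e-21). Tnnt2, cardiac troponin T, was the 1 member that fell, with mean log2 levels of 11.49 in deficient and 12.59 in excess medium. Ckm, muscle creatine kinase, differed by 0.93 ± 0.10, with excess medium below the limit. Tnnc2, fast troponin C, differed by -0.05 ± 0.06 (adjusted p = 0.52), or -0.15 without high beta-actin arrays. Myod1, the regulator that starts skeletal muscle differentiation, was below the limit in both media.

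Of the contractile genes of smooth muscle 16 of 27 rose and 1 fell, with a median log2 fold change of 0.25. Cnn1, calponin, had log2 levels of 11.14, 11.20, 11.17, 11.20 and 11.18 in deficient medium, against 10.29, 10.21, 10.30, 10.33 and 10.44 in excess medium. All deficient arrays lay above all excess arrays, with a log2 fold change of 0.86 ± 0.05 (adjusted p = 6.3e-17). Mylk, the kinase that phosphorylates myosin light chains to start contraction, differed by 1.08 ± 0.07, Myh11, the smooth muscle myosin heavy chain, by 0.77 ± 0.11, Lmod1, leiomodin, by 0.64 ± 0.19, Myocd, the coactivator that drives this gene group, by 0.79 ± 0.11, and Tagln, transgelin, by 0.45 ± 0.05. Acta2, smooth muscle alpha-actin, differed by 0.19 ± 0.17 and Smtn, smoothelin, by -0.18 ± 0.26, which did not pass the threshold (adjusted p = 0.36 and 0.58). One of the 2 probe sets of Smtn had the opposite sign. The member that fell was Mrtfa, a partner of serum response factor, with a log2 fold change of -0.54.

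**Figure D3:**
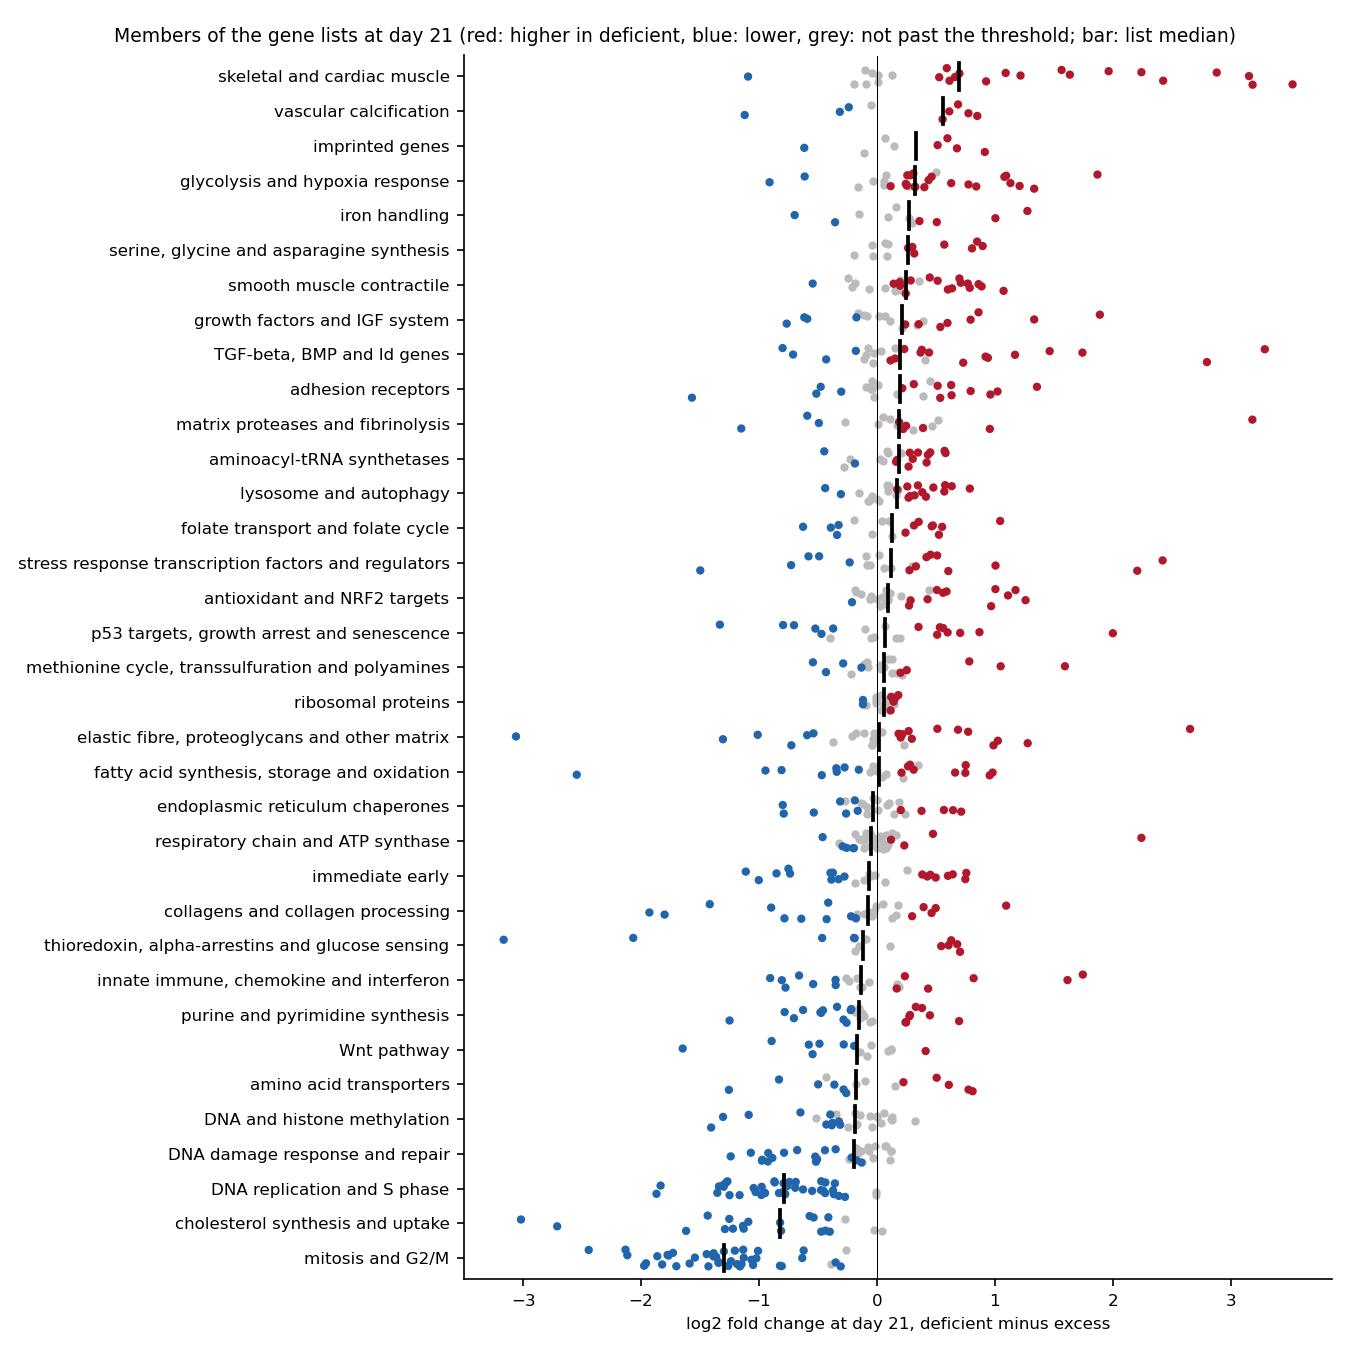
Log2 fold change of deficient over excess medium at day 21 (horizontal axis) for each tested member of the gene lists with at least 8 tested members (rows), with the list median as a bar. Skeletal and cardiac muscle genes have a median of 0.70 at the top, and replication, cholesterol and mitosis genes have medians of -0.79, -0.82 and -1.30 at the bottom, where 0 members are red.

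The group with the largest shared fall was that of mitosis, where 39 of 41 tested members were lower in deficient medium and 0 higher, with a median log2 fold change of -1.30. Cdc20, which activates the ubiquitin ligase that starts anaphase, had log2 levels of 5.02, 5.15, 5.46, 4.88 and 5.30 in deficient medium, against 7.68, 7.27, 7.72, 7.72 and 7.63 in excess medium. Every deficient array was below every excess array, and the log2 fold change was -2.44 ± 0.13 (adjusted p = 3e-18). Mki67, the Ki-67 antigen of dividing cells, had log2 levels of 10.32, 10.15, 10.24, 10.21 and 10.23 in deficient medium, against 11.48, 11.57, 11.72, 11.62 and 11.56 in excess medium, and differed by -1.36 ± 0.07. Racgap1 and Kif23, the subunits of centralspindlin, which organizes the division plane, differed by -1.96 ± 0.08 and -1.77 ± 0.10, although the mean over the probe sets of Kif23 gave -1.01. Prc1, a bundler of midzone microtubules, Kif20a, a kinesin of cytokinesis, and Cdca3, which promotes mitotic entry, differed by -1.38 ± 0.09, -2.13 ± 0.17 and -2.12 ± 0.13. Bub1, a kinase of the spindle checkpoint, and Spc25, of the kinetochore, differed by -1.02 ± 0.06 and -1.39 ± 0.08. Hmmr and Mybl2 had log2 fold changes of -0.39 and -0.26 and did not pass the threshold.

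Genes of replication fell as widely, 40 of 42 and 0 higher, with a median log2 fold change of -0.79. Mcm7 and Mcm2, subunits of the replicative helicase, had mean log2 levels of 8.39 ± 0.10 and 8.21 ± 0.05 in deficient medium, against 10.26 ± 0.09 and 9.37 ± 0.14 in excess medium (SD, n = 5 each). Orc2 and Ccne1, each with a log2 fold change of -0.01, did not pass. Of 33 tested genes of DNA damage and repair 17 fell and 0 rose (median -0.20), with Blm, a helicase of recombination, at -1.24 ± 0.15, Chek1, a checkpoint kinase, at -0.92 ± 0.09, and Fancd2, of cross-link repair, at -0.92 ± 0.09, near background. Of 27 genes of DNA and histone methylation 10 fell and 0 rose (median -0.18, or -0.29 with 9 lower without the 2 later excess arrays). Ezh2 and Eed, of the complex that methylates histone H3 on lysine in Polycomb silencing, differed by -1.41 ± 0.08 and -0.43 ± 0.05, and Uhrf1, which brings the maintenance DNA methyltransferase to replicating DNA, by -1.30 ± 0.13. Without high beta-actin arrays 40 mitosis and 34 replication genes were lower.

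The promoters of the mitosis list were searched for letters known from cell cycle genes, since its members moved together. The cell cycle homology region was taken as TTTGAA or TTCGAA and the CCAAT box as CCAAT, on both strands, in the 300 bases from 250 before to 50 after the gene's start (RefSeq, GRCr8). Of 35 mitosis genes with a promoter, 25 (71.4%) held the first, 28 (80%) the second and 22 (62.9%) both, while 19.5%, 37.7% and 7.83% of all 27457 promoters did, and 13.4%, 38.7% and 5.76% of the promoters of 7714 tested genes. The letters of both overlapped in 2 of the 35. CCAAT alone was also common in other lists, at 59.5% for replication and 55.6% for the aminoacyl-tRNA synthetases described below. The promoters of 3 such genes that fell are shown with both motifs in capitals, 5' to 3' along the gene.
Cdc20 (chr5:137255750-137256049, minus strand): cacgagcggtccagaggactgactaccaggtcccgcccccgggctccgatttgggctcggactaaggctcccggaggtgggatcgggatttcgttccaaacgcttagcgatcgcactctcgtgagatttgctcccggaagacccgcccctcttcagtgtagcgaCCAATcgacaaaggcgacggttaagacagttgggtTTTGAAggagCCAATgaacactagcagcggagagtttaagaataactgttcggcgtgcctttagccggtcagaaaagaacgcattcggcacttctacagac
Kif23 (chr8:71320535-71320834, minus strand): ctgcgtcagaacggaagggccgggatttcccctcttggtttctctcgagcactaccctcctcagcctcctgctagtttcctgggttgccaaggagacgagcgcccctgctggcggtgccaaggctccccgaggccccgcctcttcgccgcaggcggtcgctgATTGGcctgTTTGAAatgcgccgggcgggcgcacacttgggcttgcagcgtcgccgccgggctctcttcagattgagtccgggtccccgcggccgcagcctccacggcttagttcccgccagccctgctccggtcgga
Prc1 (chr1:143659231-143659530, plus strand): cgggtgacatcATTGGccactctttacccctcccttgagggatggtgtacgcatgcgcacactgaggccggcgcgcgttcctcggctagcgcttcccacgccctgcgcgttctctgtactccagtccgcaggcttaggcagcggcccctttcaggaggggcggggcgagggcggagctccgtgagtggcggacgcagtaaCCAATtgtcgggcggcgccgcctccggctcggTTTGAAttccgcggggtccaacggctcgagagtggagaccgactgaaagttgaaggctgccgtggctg
In Cdc20 the homology region began at base -51 from the start, with CCAAT boxes at -86 and -41. In Kif23 the homology region began at -79 and the CCAAT box at -88, and in Prc1 they began at -18, and at -239 and -50. A match describes these letters and not binding, and no factor was measured on these promoters.

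In cholesterol synthesis and uptake 18 of 21 genes fell and 0 rose, and the median log2 fold change was -0.82. Insig1, which holds the sterol sensor in the endoplasmic reticulum and is itself induced when sterols are low, had log2 levels of 5.97, 5.70, 5.62, 5.68 and 5.87 in deficient medium, against 8.65, 8.69, 8.70, 9.12 and 8.77 in excess medium. The groups were more than 2 log2 units apart, and the log2 fold change was -3.02 ± 0.08 (adjusted p = 8e-28). Idi1, the isomerase of isopentenyl diphosphate, had log2 levels of 5.98, 5.95, 6.07, 5.99 and 6.14 in deficient medium, against 8.76, 8.71, 8.59, 8.94 and 8.69 in excess medium, and differed by -2.71 ± 0.09. Cyp51, the lanosterol demethylase, differed by -1.13 ± 0.06. Scap, Pmvk and Sc5d did not pass, with log2 fold changes of -0.02, -0.27 and 0.04. Among genes of fatty acid metabolism 9 of 26 rose and 8 fell (median 0.02, or 0.06 without high beta-actin arrays and 0.05 without the 2 later excess arrays), and the fallers included desaturases. Scd2, a stearoyl-CoA desaturase, had log2 levels of 8.56, 8.54, 8.50, 8.32 and 8.35 in deficient medium, against 10.79, 11.00, 10.92, 11.20 and 11.10 in excess medium. Its groups did not overlap and differed by -2.55 ± 0.09 (adjusted p = 4.7e-24), while Fads1 and Fads2, which desaturate polyunsaturated fatty acids, differed by -0.94 ± 0.09 and, near background, -0.81 ± 0.08. The sterol regulatory element was searched as TCACNCCAC and had 0 matches in the 17 available promoters of the cholesterol list, against 1.13% of all promoters. At so low a share 0 matches are likely in 17 promoters of any kind, so the count cannot tell whether the element is lacking. CCAAT was in 13 (76.5%), against 37.7% of all promoters. It was also above that share in lists that did not fall, such as serine and asparagine synthesis (58.3%) and the stress regulators (55%).

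Txnip, an alpha-arrestin that binds thioredoxin and lowers glucose uptake, had the largest fall of all genes tested. It had log2 levels of 5.84, 5.81, 5.95, 5.70 and 6.06 in deficient medium, against 9.48, 8.84, 8.90, 9.11 and 8.86 in excess medium. The lowest excess array was more than 2 log2 units above the highest deficient array, and the log2 fold change was -3.17 ± 0.14 (8.97-fold lower, adjusted p = 1.6e-20). Arrdc4, another alpha-arrestin, had mean log2 levels of 3.80 ± 0.18 in deficient medium, below the background limit, and 5.86 ± 0.23 in excess medium. Slc2a3, a glucose transporter, differed by 0.61 ± 0.08. Both alpha-arrestins are known targets of the glucose-sensing factors MondoA and ChREBP, which bind pairs of sites that resemble E boxes. Only the exact E box CACGTG was searched here, which is not a search for such a pair. The promoter of Arrdc4 holds 1 such box, in capitals, as do 6.65% of all promoters and 10.1% of those of tested genes.
Arrdc4 (chr1:131793376-131793675, minus strand): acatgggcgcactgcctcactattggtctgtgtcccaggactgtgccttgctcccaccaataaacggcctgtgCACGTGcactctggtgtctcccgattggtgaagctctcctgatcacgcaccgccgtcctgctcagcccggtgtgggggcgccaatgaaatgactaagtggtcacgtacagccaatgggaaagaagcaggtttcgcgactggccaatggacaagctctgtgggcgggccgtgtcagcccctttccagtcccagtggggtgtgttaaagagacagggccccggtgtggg

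Genes of glycolysis and the hypoxia response were mostly higher in deficient medium, 20 of 29 up and 2 down, with a median log2 fold change of 0.32. Pfkp, a phosphofructokinase, had log2 levels of 9.59, 9.90, 9.70, 9.74 and 9.78 in deficient medium, against 8.09, 7.45, 8.12, 7.73 and 7.97 in excess medium, and differed by 1.87 ± 0.11 (adjusted p = 7.1e-17). Vegfa, the endothelial growth factor induced by low oxygen, had mean log2 levels of 9.86 ± 0.07 in deficient and 8.53 ± 0.19 in excess medium. P4ha2, a collagen prolyl hydroxylase, differed by 1.10 ± 0.07. Pfkm, the muscle phosphofructokinase, and Adm, adrenomedullin, were the 2 that fell, by 0.61 and 0.91 on the log2 scale. In the respiratory chain 26 of 35 members did not pass the threshold (4 higher, 5 lower, median -0.05), and 1 was higher and 5 lower with a median of -0.03 without high beta-actin arrays, or 2 and 6 without the 2 later excess arrays. Apart from Cox6a2, Ndufs8 of complex I differed by -0.46 ± 0.09 and Atp5mc3 of the ATP synthase by -0.20 ± 0.05.

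Genes of the stress response went both ways. Of 21 tested regulators 9 rose and 5 fell (median 0.12), or 5 and 5 without the 2 later excess arrays and 5 and 4 with a median of 0.05 without high beta-actin arrays. Trib3, a pseudokinase induced when amino acids run short, had log2 levels of 8.62, 8.96, 8.75, 8.80 and 8.76 in deficient medium, against 6.42, 6.44, 6.46, 6.15 and 6.30 in excess medium. The groups were about 2 log2 units apart, with a log2 fold change of 2.42 ± 0.13 (adjusted p = 4.3e-18). Ddit3, the transcription factor CHOP, had log2 levels of 9.83, 9.91, 9.94, 10.08 and 10.05 in deficient medium, against 7.91, 7.55, 7.57, 8.18 and 7.55 in excess medium, and differed by 2.21 ± 0.11. Atf4, the transcription factor upstream of both, differed by 0.61 ± 0.07, and Chac1, which degrades glutathione, by 1.01 ± 0.13. Nupr1, a stress-induced nuclear protein, had log2 levels of 11.73, 11.63, 11.66, 11.79 and 11.89 in deficient medium, against 13.34, 13.25, 13.11, 13.28 and 13.21 in excess medium. It was lower in every deficient array than in any excess array, with a log2 fold change of -1.50 ± 0.06 (adjusted p = 1.9e-23). Ddit4, an inhibitor of the growth kinase complex mTORC1, differed by -0.73 ± 0.11, and Cebpb, Ppp1r15b and Xbp1 by -0.49, -0.58 and -0.23. Of 25 chaperones of the endoplasmic reticulum 5 rose (20%) and 7 fell (28%). These are about the shares of all genes tested (22.4% and 28.5%) and do not set the chaperones apart. Their median was -0.04, or -0.08 without high beta-actin arrays and -0.07 without the 2 later excess arrays. The lower ones include Sdf2l1 and Creld2, at -0.80 ± 0.10 and -0.79 ± 0.10.

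Of 13 enzymes that make serine, glycine and asparagine 7 rose and 0 fell, with a median log2 fold change of 0.27. Asns, asparagine synthetase, had log2 levels of 9.74, 9.83, 9.81, 9.73 and 9.93 in deficient medium, against 9.15, 8.83, 8.82, 8.95 and 8.81 in excess medium, and differed by 0.90 ± 0.07 (adjusted p = 3.8e-13). Phgdh, which opens serine synthesis, differed by 0.81 ± 0.12, Psat1 and Psph, its following steps, by 0.27 ± 0.06 and 0.32 ± 0.09, and Glul, glutamine synthetase, by 0.57 ± 0.06, or 0.86 as the mean of its probe sets. The call of Psph was lost without high beta-actin arrays (adjusted p = 0.054). Got1, the cytosolic aspartate aminotransferase, had log2 levels of 8.67, 8.68, 8.73, 8.75 and 8.77 in deficient medium, against 8.43, 8.32, 7.30, 8.03 and 7.28 in excess medium. Replicates 3 and 5 of excess medium, the later serials, were far below the other excess arrays. The log2 fold change of 0.85 ± 0.18 was 0.46 without them (adjusted p = 0.021), and 0.35 without high beta-actin arrays. Of 20 aminoacyl-tRNA synthetases 11 rose and 2 fell (median 0.19), or 8 and 1 without high beta-actin arrays, with Yars1, Nars1 and Eprs1 at 0.58 ± 0.06, 0.45 ± 0.05 and 0.42 ± 0.05 (Eprs1 0.69 as the mean of its probe sets), and Cars1 and Qars1 lower, at -0.45 and -0.19. Amino acid transporters were divided, 5 of 15 higher and 6 lower (median -0.17), or 5 and 3 with a median of -0.03 without high beta-actin arrays, and Slc3a2, the heavy chain of several transporters, differed by 0.78 ± 0.06, while Slc1a3, a glutamate transporter, differed by -1.25 ± 0.07, or -0.38 as the mean of its probe sets, of which 1 in 3 went the other way.

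Genes of this response often carry an element that ATF4 and its partners bind, searched here as TGATGNAAN on both strands. It was found in 7 of 18 synthetase promoters (38.9%), in 5 of 20 of the stress regulators (25%) and in 3 of 13 of the amino acid transporters (23.1%). In the serine and asparagine list 2 of 12 held it (16.7%), against 3.8% of all promoters and 1.87% of those of tested genes. Of the synthetases with a match, Cars1 fell and Tars1 and Iars1 did not pass the threshold. Of the regulators with one, Nupr1 and Ppp1r15b fell and Herpud1 did not pass. Of the transporters with one, Slc7a1 rose, Slc38a1 fell and Slc1a4 did not pass. The serine matches were Got1 and Pck2, and the call of Pck2 was lost in 11 of 24 alternatives. Ddit3, Phgdh and Psat1, which rose, had no match. The promoters of 3 genes that rose are shown with the match in capitals.
Trib3 (chr3:161275484-161275783, minus strand): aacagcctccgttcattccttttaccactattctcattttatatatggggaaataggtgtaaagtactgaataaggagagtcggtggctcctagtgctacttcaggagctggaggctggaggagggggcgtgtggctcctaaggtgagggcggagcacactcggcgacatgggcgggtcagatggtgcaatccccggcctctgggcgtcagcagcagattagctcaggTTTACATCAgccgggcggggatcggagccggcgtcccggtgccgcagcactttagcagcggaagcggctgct
Chac1 (chr3:126795881-126796180, plus strand): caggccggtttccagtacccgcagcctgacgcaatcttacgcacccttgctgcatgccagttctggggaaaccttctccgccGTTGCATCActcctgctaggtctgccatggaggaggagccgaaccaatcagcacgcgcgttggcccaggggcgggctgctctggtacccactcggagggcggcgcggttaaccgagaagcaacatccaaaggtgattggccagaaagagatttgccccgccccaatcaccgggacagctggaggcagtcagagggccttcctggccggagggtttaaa
Yars1 (chr5:146819913-146820212, plus strand): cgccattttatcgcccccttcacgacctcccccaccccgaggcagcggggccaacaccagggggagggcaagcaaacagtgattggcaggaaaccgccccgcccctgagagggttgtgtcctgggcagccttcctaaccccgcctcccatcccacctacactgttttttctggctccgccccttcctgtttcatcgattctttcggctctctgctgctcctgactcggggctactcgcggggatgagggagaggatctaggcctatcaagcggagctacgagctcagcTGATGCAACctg
Counted from the start, the match began at base -22 in Trib3, -168 in Chac1 and 38 in Yars1.

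Genes of folate transport and the folate cycle went both ways. Of 26 genes on the list 24 had a probe set and 17 were tested, of which 8 rose and 4 fell (median 0.13). Slc19a1, the reduced folate carrier, differed by 0.48 ± 0.11 and Folr1, a folate receptor, by 0.47 ± 0.11, both close to the background limit, and Ggh, which trims the glutamate tail of stored folate, by 0.32 ± 0.06. Fpgs, which adds that tail, differed by 0.10 ± 0.09 (adjusted p = 0.34), or 0.23 without high beta-actin arrays, and passed in neither. Slc46a1 and Slc25a32, the proton-coupled and the mitochondrial folate carriers, and Mtr, methionine synthase, did not pass the filter on low values.

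Among enzymes of the folate cycle the mitochondrial Mthfd2, which oxidizes the carbon unit taken from serine, had the largest difference. It had log2 levels of 7.52, 7.76, 7.60, 7.71 and 7.83 in deficient medium, against 6.90, 6.53, 6.49, 6.56 and 6.71 in excess medium. The groups did not overlap, and the log2 fold change was 1.05 ± 0.14 (2.06-fold, adjusted p = 4.4e-08). Gcsh, of the glycine cleavage system, differed by 0.53 ± 0.08. Tyms, thymidylate synthase, had log2 levels of 5.37, 5.15, 5.47, 5.29 and 5.65 in deficient medium, against 6.02, 5.76, 6.07, 5.97 and 6.23 in excess medium. All deficient arrays were below all excess arrays and the log2 fold change was -0.63 ± 0.14, a call that was lost without high beta-actin arrays (-0.50, adjusted p = 0.053). Mthfd1, a cytosolic enzyme of the same cycle, and Gart, of purine synthesis, differed by -0.32 ± 0.07 and -0.34, Mtrr, which reactivates methionine synthase, by -0.43 ± 0.10, and Mthfd1l by -0.39 ± 0.15, which was lost in 6 of 24 alternatives. Shmt1 and Shmt2, which take the carbon unit from serine, differed by -0.04 ± 0.09 and -0.20 ± 0.13 and did not pass (adjusted p = 0.73 and 0.21). They were at -0.004 and -0.03 without high beta-actin arrays. Without high beta-actin arrays 8 members were higher and 1 lower, with a median of 0.22.

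In the pathways that folate feeds, changes went both ways, as they did over all genes tested (22.4% higher and 28.5% lower). Of 27 genes of purine and pyrimidine synthesis 8 rose and 12 fell (median -0.15), or 6 and 7 without high beta-actin arrays, with Tk1, thymidine kinase of the salvage route, at -1.25 ± 0.10, Rrm1, a subunit of ribonucleotide reductase, at -0.78 ± 0.05, and Uck2, uridine-cytidine kinase, at 0.70 ± 0.07. Slc29a1, an equilibrative transporter of nucleosides, had log2 levels of 3.94, 4.53, 4.58, 4.17 and 4.02 in deficient medium, against 6.18, 6.50, 6.23, 6.65 and 6.46 in excess medium. It was lower in every deficient array than in any excess array, with a log2 fold change of -2.16 ± 0.10 (adjusted p = 7.6e-20). In deficient medium it was near the background limit, so that this fold is inexact. Of 21 genes of the methionine cycle, transsulfuration and polyamine synthesis 5 rose and 4 fell (median 0.06), or 6 and 2 without the 2 later excess arrays. With all arrays the share of this list that rose was about that of all genes tested. The share that fell was smaller than that of all genes tested, so these counts do not set the list apart. Mat1a, the liver form of methionine adenosyltransferase, had mean log2 levels of 7.33 ± 0.12 in deficient and 5.74 ± 0.16 in excess medium, while Mat2a, the form of other tissues, had a log2 fold change of -0.54. Odc1, which makes putrescine, differed by 0.78 ± 0.05, and Apip, of methionine salvage, by 1.05 ± 0.11.

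Iron and antioxidant genes rose in part. Tfrc, the transferrin receptor, had log2 levels of 8.99, 9.26, 9.30, 9.27 and 9.17 in deficient medium, against 8.08, 7.73, 7.97, 7.87 and 7.95 in excess medium, and differed by 1.28 ± 0.09 (adjusted p = 8.9e-15). Slc40a1, ferroportin, which exports iron, differed by -0.70 ± 0.10, or -0.44 as the mean of its probe sets, and of 11 iron genes 4 rose and 2 fell (median 0.27), or 5 and 1 with a median of 0.13 without high beta-actin arrays, and the median was 0.09 without the 2 later excess arrays. In the antioxidant list 11 of 30 rose and 1 (Sod1, -0.21) fell, with a median of 0.10. Hmox1, heme oxygenase, differed by 1.01 ± 0.09, Srxn1, sulfiredoxin, by 1.18 ± 0.10, Gpx1, glutathione peroxidase, by 1.11 ± 0.06, and Nqo1, a quinone reductase, by 0.97 ± 0.08. Lysosome and autophagy genes had 13 of 29 higher and 2 lower (median 0.17), or 10 and 1 with a median of 0.10 without the 2 later excess arrays and 11 and 0 without high beta-actin arrays, with Ctsl, cathepsin L, at 0.57 ± 0.05, and Lamp2 at 0.48 ± 0.05, or 0.16 as the mean of its probe sets, of which 1 in 2 went the other way. Of the p53 and growth arrest list 8 of 21 rose and 6 fell (median 0.07), or 5 and 6 without high beta-actin arrays. Gadd45a, induced by DNA damage and other stress, had log2 levels of 10.90, 11.00, 10.82, 10.99 and 10.98 in deficient medium, against 9.40, 8.96, 8.70, 8.82 and 8.80 in excess medium, and differed by 2.00 ± 0.14 (adjusted p = 8.8e-15), while Cdkn2c, an inhibitor of cyclin-dependent kinases, differed by -1.33 ± 0.12.

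Matrix genes were divided too. Of 27 collagens and collagen enzymes 5 rose and 10 fell (median -0.08, or -0.19 with 8 lower without the 2 later excess arrays). Col3a1, of type III collagen, had log2 levels of 11.38, 11.14, 11.06, 11.15 and 11.06 in deficient medium, against 12.65, 12.51, 12.52, 12.78 and 12.42 in excess medium, and differed by -1.42 ± 0.11 (adjusted p = 2.1e-13), and Col6a1 and Col25a1 differed by -1.80 ± 0.12 and -3.03 ± 0.16, the last near background in deficient medium. The 5 that rose were Col4a5 and the enzymes Plod1, Plod2, P4ha1 and P4ha2, which hydroxylate lysine or proline in collagen, at log2 fold changes of 0.30, 0.40, 0.50, 0.46 and 1.10. Of the elastic fibre and proteoglycan list 13 of 30 rose and 6 fell (median 0.02, or -0.05 without the 2 later excess arrays). Lum, the keratan sulfate proteoglycan lumican, had log2 levels of 2.22, 2.45, 2.14, 2.12 and 2.24 in deficient medium, against 4.33, 5.00, 5.84, 5.68 and 5.63 in excess medium. In deficient medium it was below the background limit on every array, and in excess medium its arrays spread over more than 1 log2 unit, with replicate 1 the lowest. Its difference was -3.06 ± 0.20, or -2.43 without high beta-actin arrays. Tnc, tenascin C, differed by 2.66 ± 0.13, with excess medium below the background limit.

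Of 17 matrix proteases and fibrinolysis genes 6 rose and 3 fell (median 0.19), or 3 and 3 without the 2 later excess arrays and 2 and 3 with a median of 0.07 without high beta-actin arrays. Adamts1, a protease of proteoglycans, differed by 0.96 ± 0.08 and Plat, tissue plasminogen activator, which dissolves clots, by -0.59 ± 0.07. Mgp, matrix Gla protein, an inhibitor of vascular calcification, had log2 levels of 11.13, 11.13, 11.17, 11.33 and 11.28 in deficient medium, against 12.62, 12.25, 12.20, 12.37 and 12.21 in excess medium. It was lower in every deficient array than in any excess array, with a log2 fold change of -1.12 ± 0.13 (adjusted p = 1.4e-09), while the phosphate importers Slc20a1 and Slc20a2 differed by 0.85 ± 0.08 and 0.78 ± 0.07 (Slc20a2 1.26 as the mean of its probe sets). Of 9 genes of vascular calcification 5 rose and 3 fell, with a median of 0.56, or 0.21 without high beta-actin arrays and 0.36 without the 2 later excess arrays. Of 24 adhesion receptors 10 rose and 4 fell (median 0.19, or 0.12 without high beta-actin arrays and 0.11 without the 2 later excess arrays). Cd44, the hyaluronan receptor, differed by 1.36 ± 0.11 and Nrp1, a coreceptor for semaphorins and VEGF, by -1.57 ± 0.08. Wnt genes had 1 of 14 higher (Ccn1, 0.41) and 7 lower, with Tcf7 and Fzd2 at -1.65 ± 0.19 and -0.89 ± 0.13. Of 21 growth factor and IGF genes 8 rose and 4 fell (median 0.21, or 0.11 without high beta-actin arrays and 0.09 without the 2 later excess arrays). Ptn, the growth factor pleiotrophin, differed by -2.58 ± 0.14 and Hbegf, a ligand of the EGF receptor, by 1.89 ± 0.15. Of 22 innate immune genes 6 rose (27.3%) and 7 fell (31.8%), near the 22.4% and 28.5% of all genes tested. Casp4, an inflammatory caspase, differed by 1.62 ± 0.11, and the cytokine Il6 by -0.77 ± 0.08. Of 25 immediate early genes 8 rose and 10 fell (median -0.06, or 0.01 without the 2 later excess arrays), with Egr2, a zinc finger factor, at -0.75 ± 0.09, and of 8 imprinted genes 4 rose and 1 (Igf2r) fell, with H19, a long noncoding RNA, at 0.92 ± 0.14. Of 14 genes of thioredoxin, arrestins and glucose sensing 5 rose and 5 fell (median -0.12, or -0.08 without high beta-actin arrays). Ribosomal protein genes differed little (6 of 21 higher, 2 lower, median 0.06), with 0 higher and 1 lower without high beta-actin arrays (median 0.01), and 3 and 2 without the 2 later excess arrays (median 0.03).

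The sufficient arrays place the middle dose on these differences. Differences from them share these arrays, so they are only set side by side. Txnip had mean log2 levels of 5.87 ± 0.14, 7.45 ± 0.18 and 9.04 ± 0.27 at 2.5, 10 and 100 ng/ml (SD, n = 5 each). Trib3 had 8.78 ± 0.12, 7.82 ± 0.18 and 6.35 ± 0.13, and Tfrc had 9.20 ± 0.12, 8.58 ± 0.18 and 7.92 ± 0.13, so that in these 3 genes the sufficient level was between the others and apart from both by more than its SD. It was so in other genes too. Ddit3 had 9.96 ± 0.10, 9.29 ± 0.11 and 7.75 ± 0.28, and Mthfd2 had 7.68 ± 0.12, 7.11 ± 0.08 and 6.64 ± 0.17. In Insig1 the levels were 5.77 ± 0.15, 5.87 ± 0.07 and 8.79 ± 0.19, in Idi1 6.03 ± 0.08, 6.10 ± 0.16 and 8.74 ± 0.13, and in Scd2 8.46 ± 0.11, 8.60 ± 0.14 and 11.00 ± 0.16. There the excess level was far above both others, which lay close together, although in Insig1 still apart by more than the sufficient SD. Mylk had 12.26 ± 0.05, 12.27 ± 0.06 and 11.19 ± 0.05, with the excess level below both others. For the mitosis list the median log2 difference was -0.21 for deficient minus sufficient medium and -1.11 for sufficient minus excess, and for the cholesterol list it was -0.02 and -0.81.

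The difference between deficient and excess medium was also read at days 7 and 14, on other arrays. In 2843 genes (31.3%) the difference at day 21 differed from that at day 7, with 953 (10.5%) shifted upward and 1890 (20.8%) downward, and in 1341 (14.7%) it differed from that at day 14, with 760 (8.36%) upward and 581 (6.39%) downward (limma interaction, adjusted p). The number against day 14 was 563 without high beta-actin arrays, 404 with replicate numbers as a block and 2120 with array weights. Of mitosis genes 37 of 41 and of replication genes 38 of 42 differed between days 21 and 7, and 11 and 8 between days 21 and 14. Their median log2 differences were -0.17, -1.46 and -1.30 at days 7, 14 and 21 for mitosis, and 0.11, -0.58 and -0.79 for replication. For cholesterol genes they were -0.06, -0.42 and -0.82, where 15 of 21 differed between days 21 and 7 and 9 between days 21 and 14, and for skeletal and cardiac muscle genes they were 0.22, 0.59 and 0.70, where 18 and 13 of 25 did.

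**Figure D4:**
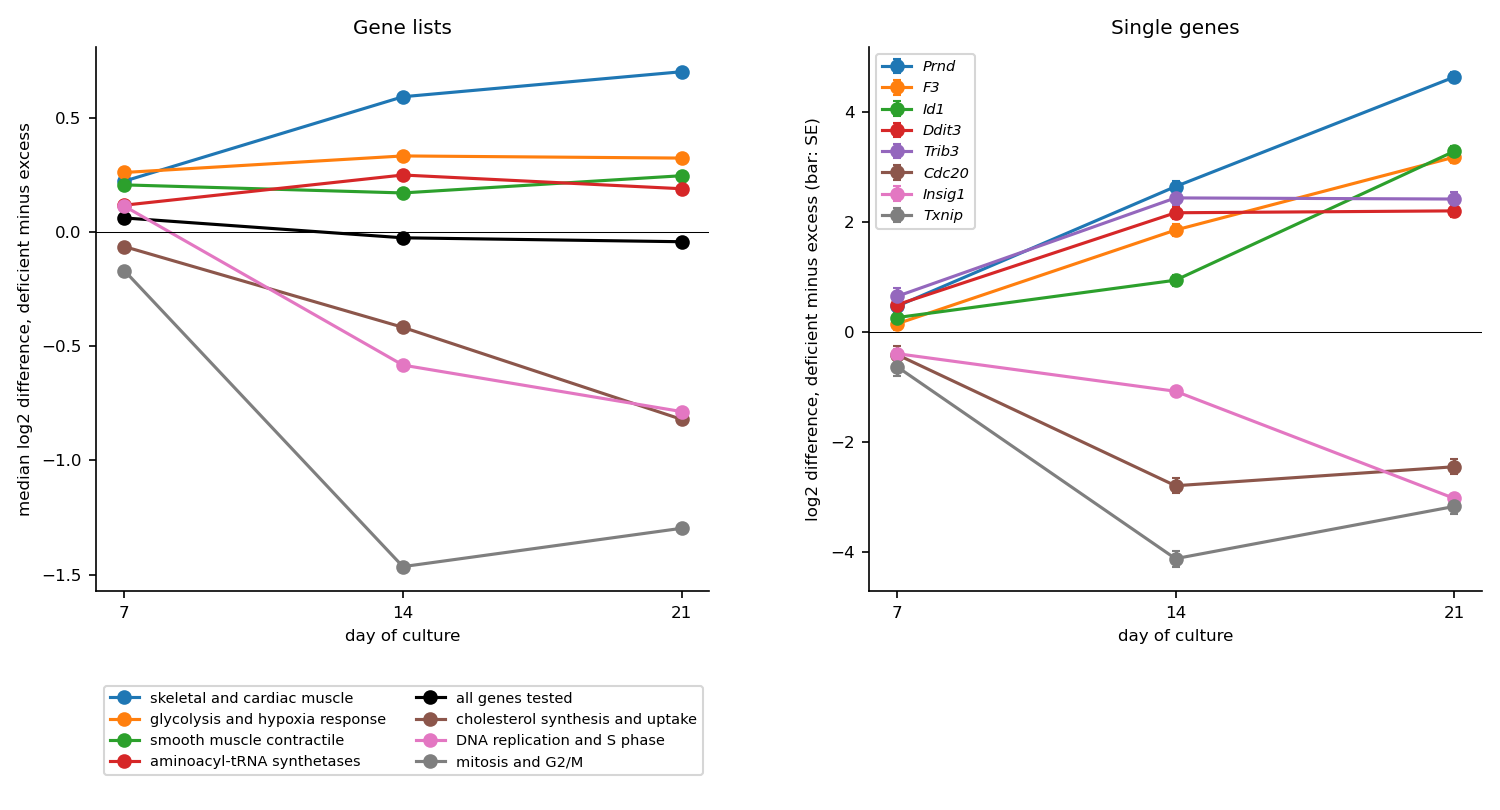
Log2 difference of deficient minus excess medium (vertical axis) at 7, 14 and 21 days of culture (horizontal axis), as medians of 7 gene lists and of all genes tested (left) and for 8 genes with bars for the SE (right). Prnd, F3, Id1 and Insig1 move farther from 0 up to day 21, while Trib3, Ddit3 and Cdc20 lie at about the same value at days 14 and 21, and Txnip is farthest from 0 at day 14.

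Single genes followed different courses, given here with all arrays, high beta-actin arrays of excess medium at days 14 and 21 among them. Prnd differed by 0.47, 2.65 and 4.64 on the log2 scale at days 7, 14 and 21, Id1 by 0.27, 0.95 and 3.29, Insig1 by -0.39, -1.07 and -3.02, and F3 by 0.15, 1.86 and 3.19. For these 4 genes the day 21 difference was larger than at both earlier days (adjusted p against day 14 between 2.5e-15 and 1.7e-08). Trib3 differed by 0.65, 2.44 and 2.42, and Ddit3 by 0.50, 2.17 and 2.21, where days 21 and 14 did not differ past the threshold (adjusted p = 0.96 and 0.91). Txnip differed by -0.62, -4.11 and -3.17, and was nearer to 0 at day 21 than at day 14 (adjusted p = 0.0012). Some genes had an estimated difference of another sign at day 7 than at day 21, among them Mgp, Tyms and Hsd11b1. Whether their day 7 differences lie apart from 0 was not tested. Mgp differed by 1.00, -1.25 and -1.12, Tyms by 0.39, 0.21 and -0.63, and Hsd11b1, which reactivates glucocorticoids, by 0.18, 0.46 and -1.41. Mthfd2 differed by 0.60, 0.86 and 1.05, with neither test between the days past the threshold (adjusted p = 0.093 and 0.59).

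**Figure D5:**
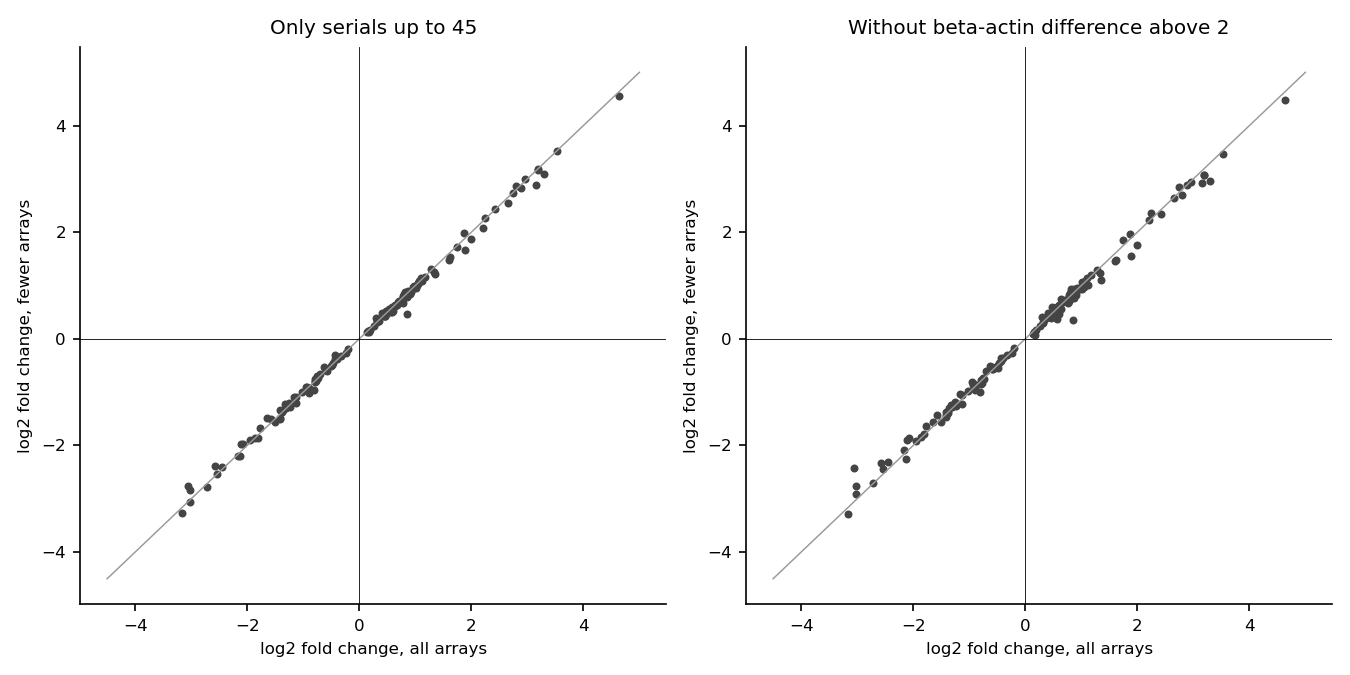
Log2 fold change of deficient over excess medium at day 21 for the 142 named genes past the threshold, with all arrays (horizontal axis) against the value with fewer arrays (vertical axis), using serials up to 45 (left) or arrays with a beta-actin difference up to 2 (right), and a line of equal values. All 142 points keep their sign in both panels, with a median shift of 0.03 and 0.06, and the largest shifts belong to Got1 on the left (0.39) and Lum on the right (0.63).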

How the data were processed

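Total RNA of A7r5 cells was hybridised to 43 Affymetrix Rat230_2 arrays. The deposited values are log2 expression per probe set, made by the authors with GCRMA per the submitters' processing notes, which also name limma (versions not given in the sources used here). GCRMA shrinks levels near background, so folds of low genes are inexact, and arrays carry no read depth, so their number limits the precision. Of 31099 probe sets 20826 had 1 gene symbol, 436 several and 9780 none in the annotation used. Each gene was read by the 1-symbol probe set with the highest mean, if above log2 4 in at least 4 arrays (9093 of 14217 genes). A model of 9 group means over 43 arrays was fitted in limma 3.58.1 (R 4.3.3), with Benjamini-Hochberg adjustment over all genes tested and a threshold of 0.05. Calculations were tested on simulated data.

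Samples were grouped by the day and dose in their titles. Replicate numbers were not used to pair arrays in the main fit, and the labels do not say what they stand for. The 4 shared numbers gave correlations of deviations of -0.17 to -0.13. These cannot tell whether arrays of one number belong together, since other differences between arrays can also shape such deviations. Named genes were the 10 highest and 10 lowest folds without overlap, up to 3 called members of each list by smallest p (up to 8 for stress regulators, serine and asparagine, and mitosis), 16 folate genes, the 3 highest and 3 lowest of each interaction, and cell type markers. Members, lists and tests were chosen with earlier results of these data known, and other genes named beside small counts were chosen after their values were seen. Alternatives changed the filter, normalization, probe set rule, variance model, covariates, block and arrays used.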

Additional observations from a re-analysis of the deposited data

Results flagged for a closer look

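In 13 of 300 groups of 5 arrays (a gene in a medium) 1 array lay far from the other 4 in its log2 level, where chance gives about 1 in 20 groups. In deficient medium these were Ggh at 10.11 (replicate 3, the others 9.86 to 9.93), Col3a1 at 11.38 (replicate 2, the others 11.06 to 11.15), Ier3 at 11.99 (replicate 2, the others 12.18 to 12.22), Folr1 at 4.47 (replicate 6, the others 4.63 to 4.68) and Tnnc2 at 12.53 (replicate 4, the others 12.63 to 12.67). In excess medium they were Kif20a at 8.55 (replicate 1, the others 7.93 to 8.06), Cdc20 at 7.27 (replicate 2, the others 7.63 to 7.72), Insig1 at 9.12 (replicate 4, the others 8.65 to 8.77) and Slc1a3 at 7.22 (replicate 3, the others 7.07 to 7.11). Further excess arrays were Slc3a2 at 10.66 (replicate 1, the others 10.42 to 10.47), Vegfa at 8.19 (replicate 5, the others 8.53 to 8.65), Dusp1 at 10.46 (replicate 1, the others 10.17 to 10.25) and Shmt1 at 5.13 (replicate 1, the others 5.27 to 5.30).

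The log2 difference between deficient and excess medium at day 21 differed from that at day 7 in 2843 genes and from that at day 14 in 1341 genes (limma interaction). The largest shifts of day 21 minus day 7 were those of Prnd (4.17), Myh2 (3.51), Tnnt1 (3.04), Insig1 (-2.63), Lum (-3.12) and Col25a1 (-3.21). Those of day 21 minus day 14 were Myh2 (2.82), Id2 (2.38), Id1 (2.34), Hsd11b1 (-1.87), Insig1 (-1.95) and Col25a1 (-2.35).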

How the results depend on the processing

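Over the alternatives the number of genes called at day 21 was between 3378 (without arrays above a beta-actin difference of 2, chosen after seeing the data) and 5163 (array weights), and leaving out 1 array gave 4300 to 4596, or 1361 to 1512 at 1.5-fold or more. The replicate block gave 4144, and 1533 at 1.5-fold or more. Genes whose difference at day 21 differed from day 7 numbered 2566 to 2803 with 1 array left out and 1380 with the replicate block. Those that differed from day 14 numbered 1085 to 1490 with 1 array left out, 2120 with array weights, 404 with the replicate block and 563 without those high beta-actin arrays. Of 142 named genes past the threshold 130 had a value in each of 24 alternatives, and 121 of these kept their call and sign in all of them. The other 12 were removed by the filter at log2 6 and kept both in the remaining 23. The call was lost at least once for 9 genes (Atp5mc3, Cd14, Mthfd1l, Pck2, Psph, Rpl4, Rps24, Rps3 and Tyms), and 0 genes reversed. The cause was not tested. Among the limits, 399 called genes had another passing probe set of opposite sign, and signals near background limit the low genes.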
